A study of Mus musculus with 6 samples.

Results

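Rps3a1 is the mouse gene for ribosomal protein eS1, and Rps3a2 and Rps3a3 are intronless copies of it elsewhere in the genome. They are 3 of the 54532 genes listed in the deposited count files, found by matching Ensembl gene IDs to the GENCODE M21 annotation of mm10. The members were chosen by their counts in mutant against wild-type pools, above all those of Rps3a3, so the genotype differences of the members, their sum and their shares are given as descriptions, without tests. RNA was sequenced from heads of mouse embryos at embryonic day 8.5, as 3 wild-type pools and 3 mutant pools of 3 heads each; the mutants carried a deletion of Sf3b4 in the neural crest. Sf3b4 encodes a subunit of the SF3B splicing complex, which helps the spliceosome recognise the branch site of introns. The titles call the mutant embryos homozygous nulls, whereas the genotype entries and the design text give a deletion in neural crest cells. The sources used here do not give the Cre driver, the strain, how complete the loss was, or whether the pools represent different litters; p-values therefore measure only the spread between these pools, which may be technical. The heads are whole tissue, in which fewer cells of a type and less RNA per cell cannot be told apart.

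The protein eS1 sits on the platform of the small (40S) ribosomal subunit, near the exit of the mRNA channel, and every cell that makes ribosomes needs it. Its introns carry small nucleolar RNAs, which are cut out of the intron and guide chemical marks on ribosomal RNA. Retrocopies, also called processed pseudogenes, arise when an mRNA is reverse transcribed and inserted back into the genome. They lack introns, usually lack the promoter of the parent gene, and in abundant housekeeping genes such as those of ribosomal proteins they are numerous. Because a young retrocopy is almost the same sequence as the parent mRNA, a sequencing read from either can be counted for the other.

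Rps3a1 (ENSMUSG00000028081) lies on the minus strand of chromosome 3, at chr3:86137940-86142702 in mm10 (GRCm38), and has 6 exons that make a transcript of 977 bases with a coding sequence of 795 bases including the stop codon. Rps3a3 (ENSMUSG00000059751) is a single block of 795 bases on the plus strand of chromosome 13, at chr13:108670603-108671397, inside an intron of Pde4d and on the same strand. Rps3a2 (ENSMUSG00000062611) covers 792 bases on the minus strand of chromosome 14, at chr14:88123017-88123808, and overlaps no other annotated gene. Both are annotated as processed pseudogenes. Compared with the coding sequence of Rps3a1 base by base, Rps3a2 differed at 4 of 792 bases (99.5% identity) and Rps3a3 at 9 of 795 (98.9%), with no gap. Neither copy has a stop codon in frame before the 264 codons of the parent are complete.

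A search of all annotated transcripts found 7 copies with at least 90% identity by BLAST over at least 80% of the Rps3a1 transcript, namely Rps3a2, Rps3a3, Gm5586, Gm13408, Gm7600, Gm8960 and Gm13935, all processed pseudogenes. Positions are counted from 1 at the A of the start codon, and the base of Rps3a1 stands first. The substitution T534C was found in all 7 copies, and T216C in 6 of the 7, with Gm8960 as the exception. These are the positions at which the reference Rps3a1 differs from nearly all of its retrocopies, so they are shown first. Around base 216 (bases 191 to 241, from exon 3 of Rps3a1, chr3:86141352-86141402, matching chr14:88123568-88123618 in Rps3a2, chr13:108670793-108670843 in Rps3a3 and chr7:16719670-16719720 in Gm5586) the reference sequences, taken from the GENCODE M21 transcripts, read as follows, with differences from Rps3a1 and the matching base of Rps3a1 in capitals.
Rps3a1: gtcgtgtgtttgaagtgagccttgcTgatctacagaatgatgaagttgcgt
Rps3a2: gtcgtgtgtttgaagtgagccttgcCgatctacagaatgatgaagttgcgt
Rps3a3: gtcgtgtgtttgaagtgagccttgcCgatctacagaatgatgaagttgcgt
Gm5586: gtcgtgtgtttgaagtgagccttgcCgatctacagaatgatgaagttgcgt

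Around base 534 (bases 509 to 559, exon 4 of Rps3a1, chr3:86139044-86139094, matching chr14:88123250-88123300, chr13:108671111-108671161 and chr7:16719352-16719402) the same 4 sequences read as follows. Gm5586 carries C520T beside the shared difference, in capitals in its own sequence only.
Rps3a1: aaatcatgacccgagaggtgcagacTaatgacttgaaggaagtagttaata
Rps3a2: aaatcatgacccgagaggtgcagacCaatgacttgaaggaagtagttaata
Rps3a3: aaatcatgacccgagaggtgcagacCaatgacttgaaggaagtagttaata
Gm5586: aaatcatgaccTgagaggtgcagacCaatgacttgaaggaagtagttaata

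Of the 9 substitutions of Rps3a3, 2 are shared with Rps3a2 (T216C and T534C) and 5 were found in no other copy (T260C, A427T, G582T, A660G and G792A). C363T also occurs in Gm8960 and Gm13935, and C762T also in Gm13935. Those of Rps3a3 lie at the third base of a codon in 7 of 9 cases. Bases 355 to 437 (exon 4 of Rps3a1, chr3:86139166-86139248, and chr13:108670957-108671039 in Rps3a3) hold C363T and A427T, shown in capitals because Rps3a3 differs from both other members there.
Rps3a1: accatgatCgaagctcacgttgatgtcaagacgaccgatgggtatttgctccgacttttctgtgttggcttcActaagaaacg
Rps3a2: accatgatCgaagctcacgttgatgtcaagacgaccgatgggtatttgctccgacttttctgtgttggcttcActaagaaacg
Rps3a3: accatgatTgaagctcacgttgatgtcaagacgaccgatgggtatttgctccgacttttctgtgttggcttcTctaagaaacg

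Bases 570 to 672 (exon 5 of Rps3a1, chr3:86138484-86138586, matching chr14:88123137-88123239 in Rps3a2 and chr13:108671172-108671274 in Rps3a3) hold the changes G582T and A660G of Rps3a3 and the changes A645T and T668C of Rps3a2, which no other copy shares. Capitals mark these 4 positions in each sequence.
Rps3a1: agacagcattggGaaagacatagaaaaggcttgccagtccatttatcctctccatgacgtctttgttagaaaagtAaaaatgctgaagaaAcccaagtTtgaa
Rps3a2: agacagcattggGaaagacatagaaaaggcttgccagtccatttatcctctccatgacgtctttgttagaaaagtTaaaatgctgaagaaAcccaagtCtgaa
Rps3a3: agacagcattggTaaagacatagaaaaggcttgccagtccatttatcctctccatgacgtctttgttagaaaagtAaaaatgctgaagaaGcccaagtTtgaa

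**Figure D1:**
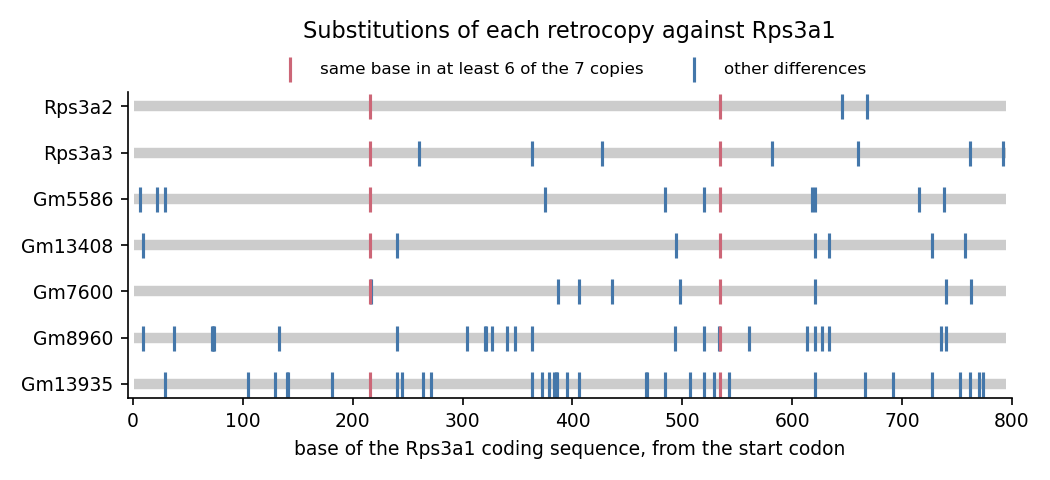
Substitutions of each of the 7 retrocopies (rows) against the Rps3a1 coding sequence, by base from the start codon (horizontal axis). Red ticks mark the 2 positions, 216 and 534, at which at least 6 of the 7 copies hold the same base, and blue ticks all other substitutions. Rps3a2 has 4 ticks and Rps3a3 has 9.

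How far reads of the copies can be told apart depends on read length, which the sources used here do not give. Of the 696 windows of 100 bases along Rps3a3, 128 (18.4%) occur without a mismatch in Rps3a1 and 218 (31.3%) in Rps3a2. Among the 696 windows of the Rps3a1 coding sequence, 370 (53.2%) occur in Rps3a2 and 398 (57.2%) in any other annotated gene. Of the 693 windows of Rps3a2, 370 (53.4%) occur in Rps3a1, 218 (31.5%) in Rps3a3 and 545 (78.6%) in any other annotated gene. For windows of 50 bases the part of Rps3a3 shared with Rps3a1 was 49.6%, and for 150 bases 10.2%. The longest stretch that Rps3a3 shares with Rps3a1 covers bases 1 to 215. Windows of Rps3a3 not found in Rps3a1 each hold at least 1 of its 9 substitutions.

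Total counts ran from 6930827 to 12251910 per pool, and the totals of the genotypes were close, with 29389006 counts over the wild-type pools and 29388266 over the mutant pools. Sf3b4 itself was read at 77.7, 72.8 and 63.9 CPM (each count divided by the library total in units of 1e6 counts, scaled between pools by TMM factors) in the wild type and 56.1, 64.2 and 60.9 CPM in the mutants. Its log2 fold change of -0.24 (SE 0.0918) did not pass the test (edgeR adjusted p = 0.128) but passed without wild-type replicate 3 (-0.32, adjusted p = 0.0288), and a gene's total count cannot tell reads of deleted exons from the rest. The 7 head markers were all tested and summed to 364 to 399 CPM in the wild type and 369 to 416 CPM in the mutants. Of the head markers 1 fell and of the 5 neural crest markers 2, against 3.88% of all tested genes, and none rose. The crest markers summed to 237 to 253 CPM in the wild type and 171 to 195 CPM in the mutants. Log2 fold changes were negative in all 5 crest markers, in all 4 tested erythroid markers and in 4 of the 5 heart markers. No erythroid or heart marker passed the test, and 6 of the 7 head markers were positive. The 5 heart markers summed to 13.3 to 52.4 CPM against 23.5 to 30.9 CPM, the 5 primitive erythroid markers to 98.9 to 250 CPM against 74.0 to 163 CPM, and the 5 extraembryonic markers to at most 2.57 CPM in any pool. No listed marker was at 0 in all pools. Reads of 4 Y-linked genes numbered 1 in wild-type replicate 1, 1 in mutant replicate 3 and 344 to 664 in each remaining pool. The part of cell makeup in the values below was not tested.

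Rps3a3 was abundant in every wild-type pool and nearly absent from every mutant pool. It had 1799, 1034 and 2036 counts in wild-type replicates 1, 2 and 3 and 25, 15 and 18 counts in the mutant replicates. As CPM these were 167, 146 and 175 against 2.05, 1.58 and 2.44. The lowest wild-type pool was far above the highest mutant pool, and within each genotype the pools lay close together. The means were 163 ± 15.0 and 2.02 ± 0.430 CPM (SD, n = 3 pools each), a log2 fold change of -6.34 (SE 0.137), or 81.1-fold.

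The row of Rps3a2 differed in the same direction but by less. Since 78.6% of its 100-base windows occur in another annotated gene, its counts may include reads of other copies. How many was not tested. Its counts were 160, 109 and 174 in the wild type and 73, 65 and 39 in the mutants, or 14.8, 15.4 and 15.0 CPM against 5.99, 6.84 and 5.28 CPM. The 3 wild-type pools were almost level, and all 3 mutant pools were below them. The log2 fold change was -1.31 (SE 0.147), from 15.1 ± 0.295 to 6.04 ± 0.780 CPM (SD, n = 3 each).

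Rps3a1, the functional gene, differed the other way. It had 9697, 5654 and 10794 counts in the wild type and 16821, 13148 and 10513 in the mutants. Scaled to library size these were 899, 799 and 930 CPM against 1381, 1383 and 1424 CPM. All mutant pools lay above all wild-type pools, and the mutant pools were the more alike, with an SD of 24.0 CPM against 68.4 CPM. The log2 fold change was 0.67 (SE 0.0753), or 1.59-fold.

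Groups that do not overlap, as in all 3 members, were seen in 28.3% of the 14008 tested genes, in 13.8% with the mutant pools higher and in 14.4% with them lower. By the quasi-likelihood test of edgeR, 6.52% of tested genes passed (Benjamini-Hochberg adjusted p under 0.05), 2.65% higher and 3.88% lower. Since the genotype difference chose the members, nothing is read from this comparison for them. Pools with and without Y-linked reads were also taken apart, as a description. The log2 ratio of CPM was 0.66 for Rps3a1, -1.49 for Rps3a2 and -6.10 for Rps3a3 between the 2 pools with at most 1 such count, and 0.68, -1.24 and -6.47 among the other 4 pools.

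**Figure D2:**
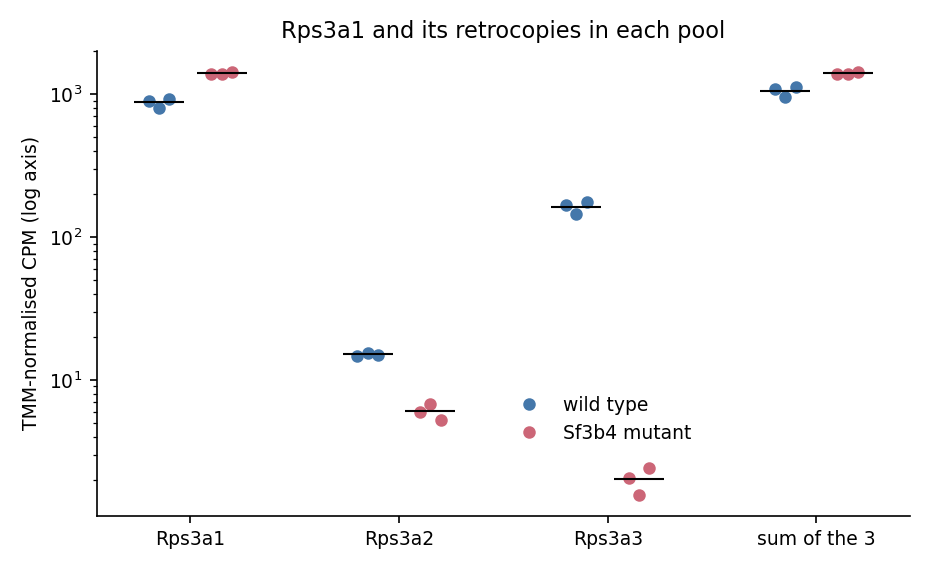
TMM-normalised CPM (log axis) of Rps3a1, Rps3a2, Rps3a3 and their sum in the 3 wild-type (blue) and 3 mutant (red) pools, with a black line at each mean. Rps3a3 runs from 146 to 175 CPM in the wild type and from 1.58 to 2.44 CPM in the mutants, while Rps3a1 and the sum are higher in the mutants.

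If each read was counted once, the sum of the copies does not depend on how reads were divided among them. Reads left out because they map to several places would be missing from the sum as well, and whether any were is not stated. The members together had 11656, 6797 and 13004 counts in the wild type and 16919, 13228 and 10570 in the mutants. As CPM the sum was 1080, 960 and 1120 against 1389, 1392 and 1431. The mutant pools thus lay above the wild-type pools in the sum as well, at 1404 ± 23.8 against 1053 ± 83.2 CPM (SD, n = 3 each). With the 3 rows replaced by their sum before the fit, the log2 fold change was 0.41 (SE 0.0752), or 1.33-fold, and adding the 5 other copies left it at 0.41. In level, Rps3a1 was 520 CPM higher in the mutants, and the difference of Rps3a2 and Rps3a3 together was -169.7 CPM, in size 32.6% of that of Rps3a1.

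The division of the reads was almost constant within a genotype. Rps3a3 took 15.4% of the summed counts in wild-type replicate 1 (exact 95% binomial interval 14.8 to 16.1%), 15.2% in replicate 2 (14.4 to 16.1%) and 15.7% in replicate 3 (15.0 to 16.3%). It took 0.148% (0.0956 to 0.218%), 0.113% (0.0635 to 0.187%) and 0.170% (0.101 to 0.269%) in mutant replicates 1, 2 and 3. All wild-type shares were above all mutant shares. The intervals cover counting error only, since PCR reads are not independent molecules. The mean share was 15.4 ± 0.222% in the wild type and 0.144 ± 0.0287% in the mutants (SD, n = 3 each).

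Rps3a2 took 1.37, 1.60 and 1.34% of the summed counts in the wild type and 0.431, 0.491 and 0.369% in the mutants, again without overlap. Rps3a1 accordingly took 83.1 ± 0.106% in the wild type and 99.4 ± 0.0330% in the mutants. The order of the retrocopies was also exchanged. There were 10.8 ± 1.17 counts of Rps3a3 for each count of Rps3a2 in the wild type, and 0.345 ± 0.115 in the mutants. For each count of Rps3a3 there were 5.39 ± 0.0833 counts of Rps3a1 in the wild type and 711 ± 150 in the mutants, where the small counts of Rps3a3 limit the precision.

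**Figure D3:**
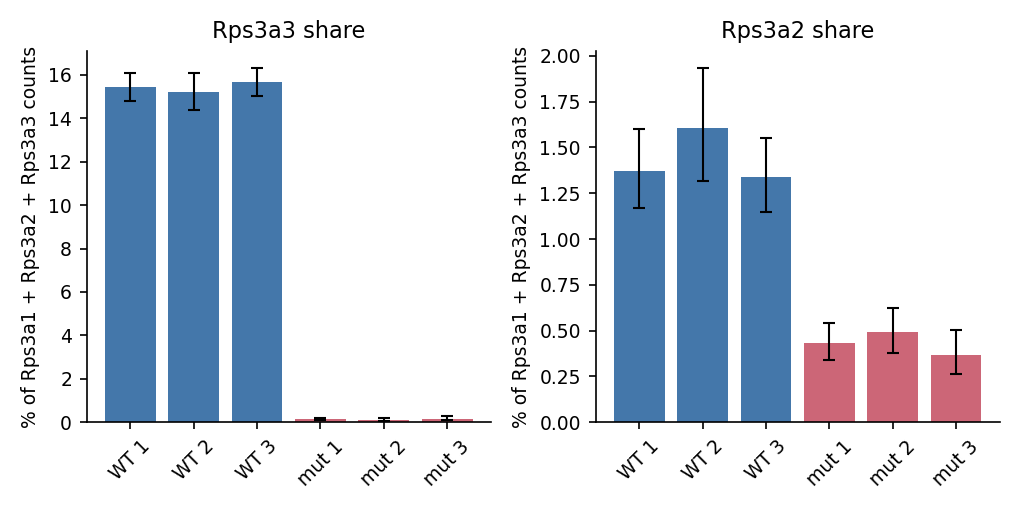
Share of the summed Rps3a1, Rps3a2 and Rps3a3 counts that fell on Rps3a3 (left) and Rps3a2 (right) in each wild-type (blue) and mutant (red) pool, in percent, with exact 95% binomial intervals. Rps3a3 takes 15.2 to 15.7% in the wild-type pools and 0.113 to 0.170% in the mutant pools; the vertical axes differ.

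Levels of different genes can be compared per length, but the length to which reads of these copies could be assigned is not known. At 100 bases, 57.2% of the windows of the Rps3a1 coding sequence occur in another annotated gene. For Rps3a2 this was 78.6% and for Rps3a3 31.6%, so the levels and ranks below are approximate. Per kilobase of exon, Rps3a1 stood at 896 ± 70.0 CPM in the wild type and 1429 ± 24.6 CPM in the mutants (SD, n = 3 each), Rps3a3 at 205 ± 18.9 and 2.54 ± 0.541, and Rps3a2 at 19.0 ± 0.372 and 7.62 ± 0.985. The length is that of all annotated exons of a gene merged, which is 977 bases for Rps3a1 but 4685 for Rps19 and 6270 for Rps15a, so genes with long minor transcripts stand lower. On this scale Rps3a1 ranked 3 of 33 genes of 40S proteins by CPM per kilobase in the wild type and 1 of 33 in the mutants. The median of those genes was 411 CPM per kilobase in the wild type and 469 in the mutants. In the wild type the order of the members was Rps3a1, Rps3a3, Rps3a2, and in the mutants Rps3a1, Rps3a2, Rps3a3, with no overlap between neighbours over the pools.

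The 5 other retrocopies had few reads in either genotype, 81 counts in all wild-type pools and 107 in all mutant pools. Gm13408, on chromosome 2, had 17, 9 and 6 counts in the wild type and 14, 5 and 9 in the mutants. Gm5586, on chromosome 7, had 9, 3 and 10 against 10, 8 and 9, and Gm7600, on chromosome 8, had 4, 6 and 9 against 7, 12 and 10. In these 3 copies the CPM of the genotypes overlapped. Gm8960, on chromosome 10, had 5, 0 and 3 counts against 6, 11 and 5, so that each mutant pool was higher in CPM than each wild-type pool. Its nearest pools had 5 and 6 counts, and 13.8% of tested genes had all mutant pools higher, so nothing is read from this. Gm13935, also on chromosome 2, had 1 count in mutant replicate 1 and 0 elsewhere. Among them only Gm13408 passed the filter on low counts, and its log2 fold change of -0.18 (SE 0.474) did not pass the test (edgeR adjusted p = 0.852). In the mutants Rps3a3 stood at 2.54 ± 0.541 CPM per kilobase and Gm13408 at 1.21 ± 0.478.

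The small nucleolar RNAs of the Rps3a1 introns come from the same primary transcript. Snord73a, in intron 4, had 5, 5 and 4 counts in the wild type and 8, 8 and 2 in the mutants. Rnu73b, in intron 3, had 15, 17 and 10 counts against 8, 8 and 5. Both were under the filter on low counts and were not tested. The CPM of Snord73a overlapped between genotypes. That of Rnu73b did not, at 0.861 to 2.40 CPM in the wild type and 0.657 to 0.842 CPM in the mutants, which is the direction opposite to Rps3a1. The nearest pools had 10 and 8 counts, and 28.3% of tested genes had groups without overlap, so nothing is read from this direction.

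Genes beside the members were compared between the genotypes in the same fit. Pde4d, the phosphodiesterase gene whose intron holds Rps3a3, was read at 8.16 ± 1.18 and 6.54 ± 1.11 CPM, or -0.29 on the log2 scale (SE 0.181; edgeR adjusted p = 0.361). The nearest genes on either side with at least 1 CPM, Depdc1b (-0.22, edgeR adjusted p = 0.249) and Rab3c (-0.32, adjusted p = 0.654), did not pass either. With single pools left out, Pde4d ranged from -0.38 to -0.17, Depdc1b from -0.31 to -0.11 and Rab3c from -0.50 to -0.15, none past the threshold. None of the 7 tested genes within 1 Mb of Rps3a3 passed by edgeR. Beside Rps3a2, Tdrd3 (0.19, edgeR adjusted p = 0.181) and Gm10110 (-0.21, adjusted p = 0.464) did not pass, and there were 2 tested genes within 1 Mb, none past the threshold.

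Beside Rps3a1, the adaptor gene Sh3d19, 7414 bases away, differed by -0.09 on the log2 scale (SE 0.0861, edgeR adjusted p = 0.563), and Lrba, 81978 bases away, by 0.05 (SE 0.0894, adjusted p = 0.758). Of 10 tested genes within 1 Mb of Rps3a1 none rose and 2 fell, against 2.65% and 3.88% of all tested genes. The 2 are Mab21l2 and Dclk2, named after their values were seen. Mab21l2, a developmental gene of the eye and midbrain, went from 12.9, 17.4 and 15.6 CPM to 6.48, 6.31 and 6.23 CPM, or -1.25 on the log2 scale (SE 0.154, edgeR adjusted p = 0.000166). Dclk2, a kinase gene of the doublecortin family, fell by 0.61 on the log2 scale (SE 0.165, edgeR adjusted p = 0.0410), a call that was lost by limma-voom and without any 1 pool other than wild-type replicate 3 (edgeR adjusted p 0.0716 to 0.157). Rps3a1 and Sf3b4 lie on the same chromosome, with 10029630 bases between them.

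The other genes of 40S proteins had small positive values, and none was as far from 0 as Rps3a1. Rps3a1 was chosen by its genotype difference, so nothing is read from this order. All 32 were tested. By edgeR 17 had an unadjusted p under 0.05, all of them higher. Of all 14008 tested genes, 1534 were higher at this p, and 23.2% passed it in either direction. None of the 32 passed by edgeR after adjustment, while DESeq2 called 4 of them and limma-voom 0. Without wild-type replicate 3, 12 rose, and without wild-type replicate 1, 1 did. All 32 had positive log2 fold changes, with every scaling, from 0.05 (Rps12) to 0.32 (Rps10, adjusted p = 0.161), and their median was 0.17 against 0.00 over all tested genes. All were below the value of Rps3a1 (0.67) and below that of the summed copies (0.41). Without wild-type replicate 2, 31 of the 32 were positive and 1 exceeded the summed copies. Rps19, a protein of the 40S head, went from 701, 661 and 714 CPM to 811, 828 and 789 CPM (0.23, SE 0.0699, edgeR adjusted p = 0.0663), and Rps15a had 0.25 (SE 0.0788, adjusted p = 0.0727). Both passed by DESeq2 and without wild-type replicate 3, and Rps15a also without a filter on low counts.

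Set against those 32 genes in the same pool, the summed copies of Rps3a made 4.07, 3.99 and 4.01 CPM per 100 CPM of other 40S genes in the wild type and 4.79, 4.78 and 4.83 in the mutants. This ratio hardly varied within a genotype, with SDs of 0.0392 and 0.0272. Rps3a1 alone made 3.35 ± 0.0342 and 4.77 ± 0.0286 (SD, n = 3 each). The level of the other 40S genes themselves varied more between wild-type pools, with a summed 26159 ± 1960 CPM, than between mutant pools, with 29235 ± 332 CPM.

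Among the 47 tested genes of 60S proteins 2 rose and none fell, while 2.65% of all tested genes rose and 3.88% fell. Their median was 0.17, and 21 had an unadjusted edgeR p under 0.05, all of them higher. Of all 14008 tested genes, 1534 were higher at this p, and 23.2% passed it in either direction. Rpl34, on chromosome 3, was the only gene of the 47 above the value of the summed copies. It had 0.48 (SE 0.0724, edgeR adjusted p = 0.00114), from 199 ± 7.13 to 277 ± 13.6 CPM, and passed in every alternative. Rpl23a rose by 0.27 (SE 0.0759, edgeR adjusted p = 0.0451), a call that did not hold without robust estimation, with the replicate block, or when wild-type replicate 2 or a single mutant pool was left out. The number that rose was 19 without wild-type replicate 3, 6 without wild-type replicate 1 and 8 by DESeq2, and 1 when wild-type replicate 2 or a single mutant pool was left out.

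Of 19 factors that assemble the 40S subunit, 2 rose and 1 fell, while 2.65% of all tested genes rose and 3.88% fell. Krr1 rose by 0.31 (SE 0.0778, edgeR adjusted p = 0.0250) and the kinase gene Riok2 by 0.34 (SE 0.0877, adjusted p = 0.0321), while Rrp12, whose product takes part in export of the subunit, fell by 0.36 (SE 0.0722, adjusted p = 0.00747). Leaving out wild-type replicate 2 or a single mutant pool ended the calls of Krr1 and Riok2, leaving out wild-type replicate 1 that of Riok2, and leaving out mutant replicate 1 or 2 that of Rrp12. None of the 14 subunit genes of eIF3, the initiation factor that binds the 40S subunit, passed by edgeR, DESeq2 or limma-voom. By edgeR 2 of them, Eif3e (0.20, adjusted p = 0.166) and Eif3m (0.21, adjusted p = 0.167), had an unadjusted p under 0.05, against 23.2% of all tested genes, and these 2 rose without wild-type replicate 3.

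Pseudogenes of other ribosomal proteins were compared on the same scale. Of 299 with a row, 104 were at 0 in every pool and 55 were tested. None passed by edgeR (4 had an unadjusted p under 0.05, against 23.2% of all tested genes, DESeq2 called 0 and limma-voom 1), and their median log2 fold change was -0.02. Without mutant replicate 2, 3 fell, and without wild-type replicate 3 or mutant replicate 3, 1 rose. Rpl34-ps1, a pseudogene named for the gene that rose most among the 60S genes, had -0.72 (SE 0.264, edgeR adjusted p = 0.134). Rpl34-ps2, named for the same gene, had -1.17 (SE 0.498, edgeR adjusted p = 0.182), and Rpl38-ps2 had 0.30 (SE 0.120, adjusted p = 0.149). Rpl34-ps1 passed without mutant replicate 2 (-1.11, edgeR adjusted p = 0.0138) and without a filter on low counts (adjusted p = 0.00314), and had -0.46 without mutant replicate 1. Among 456 tested processed pseudogenes of any gene, Rps3a2 and Rps3a3 left out, 3 rose and 3 fell, against 2.65% and 3.88% of all tested genes.

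**Figure D4:**
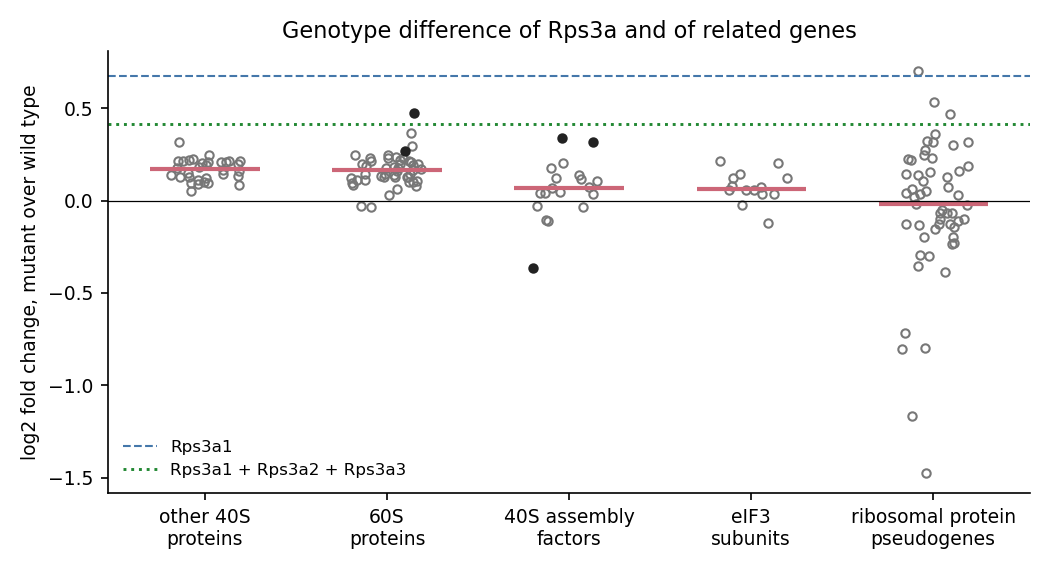
Log2 fold changes (mutant over wild type) of the tested genes of 5 groups, with a red line at each median and filled points for genes with an edgeR adjusted p under 0.05. The dashed line is Rps3a1 (0.67) and the dotted line the sum of its copies (0.41). All 32 other 40S genes lie between 0 and the dotted line; Rps3a3 (-6.34) and Rps3a2 (-1.31) are not drawn.

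The genes whose pattern over the 6 pools was nearest to that of a member were found by the root mean square difference of centred log2 CPM. For Rps3a3 these were Nr1h5 (0.51), Gm44341 (1.36) and Gm9347 (1.63) on the log2 scale. Nr1h5, a nuclear receptor gene on chromosome 3, had 220, 224 and 253 counts in the wild type and 0, 1 and 0 in the mutants. Gm44341, annotated as a microRNA on chromosome 13, had 28, 10 and 32 counts against 0 in each mutant pool, and the pseudogene Gm9347 on chromosome 7 had 34, 35 and 40 against 2, 3 and 3. Near to Rps3a1 were Fst (0.05) and Rhbdf2 (0.07), each with a log2 fold change of 0.61. A likeness over 6 pools of 2 genotypes rests mostly on the genotype difference itself.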

How the data were processed

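Total RNA sequencing counts of 6 head pools were used, 3 per genotype, grouped by their titles. The library kit was TruSeq Standard Total RNA, per the labels' protocols. Raw counts per Ensembl gene were deposited by the authors as whole numbers. Per the submitters' processing notes, reads refer to mm10. The sources used here do not give the aligner, counting program, read length, strand or treatment of reads that map to several places, and the last of these decides how reads of Rps3a1 and its copies were divided. Of 54532 IDs 54495 matched GENCODE M21, which gave symbols, coordinates and transcript sequences. No genome sequence was used, so copies outside annotated transcripts were not analysed here.

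Genes were kept with filterByExpr (14008), scaled by TMM factors and tested with edgeR 4.0.16 in R 4.3.3 (glmQLFit with robust estimation, glmQLFTest, two-sided, Benjamini-Hochberg over all tested genes, threshold 0.05). The standard error is the log2 fold change divided by the square root of F. The step was tested on simulated data. DESeq2 1.42.0 and limma 3.58.1 (voom) were alternatives, with other scalings, filters, the replicate block and each pool left out. Copies were sought with BLAST 2.17.0 and aligned with biopython 1.88. No pool was a duplicate of another (chi-square over degrees of freedom, within a genotype, 3.01 to 10.2).

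The members and gene lists were chosen with earlier results of these data known. Named genes are the members, Sf3b4, the intronic RNAs, the other copies, in each list at most 6 genes past the threshold or else the 2 with smallest p, the nearest genes of at least 1 CPM beside each member, and the 3 nearest patterns to Rps3a1 and Rps3a3, of which 1 is not reported here. Rps12, Rps10, Rpl34-ps2, Mab21l2, Dclk2 and Rnu73b are named beyond that rule. Snord73b matched no ID.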

Additional observations from a re-analysis of the deposited data

How the results depend on the processing

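Across the alternatives the log2 fold changes lay between 0.62 and 0.72 for Rps3a1, -1.40 and -1.24 for Rps3a2, -6.46 and -6.19 for Rps3a3 and 0.36 and 0.46 for the sum, and leaving out single pools gave these extremes. The Rps3a3 share lay between 15.3 and 15.5% in the wild type and between 0.131 and 0.159% in the mutants. In the sequence comparison, the part of Rps3a3 windows found in Rps3a1 was 49.6% with 50 bases and 10.2% with 150, as the window length dictates; by BLAST, 6 of the 7 copies had at least 95% identity.

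Counts of calls depended on single pools. With each pool left out, all genes called ranged from 230 (without mutant replicate 1) to 1810 (without wild-type replicate 3), 40S genes from 0 to 12, 60S genes from 1 to 19, assembly factors from 0 to 4, eIF3 genes from 0 to 2 and ribosomal protein pseudogenes from 0 to 3. DESeq2 called 4 of the 40S and 8 of the 60S genes. Without a filter on low counts 1 of the 40S genes, 4 of the 60S genes and 2 pseudogenes passed, and without robust estimation 1 of the 60S genes and 1 pseudogene; limma-voom called 1 pseudogene. The cause was not tested.

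The replicate block gave 694 calls in place of 914 and a Rps3a1 log2 fold change of 0.68. Same-numbered pools did not deviate together (correlations -0.161, 0.0515 and -0.0598), so the numbers do not pair them. No pool correlated best with the pool of its own number. Depth limits Rps3a3 in the mutants (15 to 25 counts a pool) and the intronic RNAs and other copies (at most 17).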
